A study of Mus musculus with 22 samples.

Results

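Tumours of mice given avelumab and NHS-muIL12 together were compared with tumours of isotype control mice, across all genes measured. The comparison holds the 4 mice titled avelumab 200 µg with NHS-muIL12 10 µg and the 4 mice titled isotype control, 8 of the 22 mice of the series. All were BALB/c mice with tumours of EMT-6, a murine breast carcinoma line implanted into the mammary fat pad, and all were sampled on day 6. The combination mice received 10 µg NHS-muIL12 under the skin on day 0 and 200 µg avelumab into a vein on days 0, 3 and 6, whereas the isotype mice received 0 µg of each, and the labels give their agent as none. Day 0 was the day of randomisation, at a tumour volume near 100 mm3. The remaining groups received 2 µg or 10 µg NHS-muIL12 alone (4 and 3 mice), avelumab alone (3 mice) or avelumab with 2 µg NHS-muIL12 (4 mice). The labels give no age and do not pair mice between groups, and p-values measure the spread between these mice. Values of single mice are listed below in the order of replicates 1 to 4.

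NHS-muIL12 joins an antibody that binds DNA in complex with histones, exposed where tumour tissue dies, to murine interleukin-12. Interleukin-12 is made by myeloid cells, binds the receptor chains encoded by Il12rb1 and Il12rb2, and acts through STAT4 in NK and T cells, which then secrete interferon-gamma. Interferon-gamma acts through Janus kinases and switches on antigen presentation, the chemokines that bind CXCR3, macrophage activation and PD-L1. PD-L1, encoded by Cd274, restrains T cells through PD-1, and avelumab is an antibody that blocks it.

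Expression of 770 genes was measured with NanoString probes, which count RNA molecules by hybridisation, and the deposited values are signals on a linear scale. After 20 housekeeping genes were set aside, 750 genes were tested on log2(signal + 1). Total signal ran from 302582 to 354956 in the isotype mice and from 360035 to 511105 in the combination mice, while housekeeping genes averaged 8.83 to 8.90 on the log2 scale. As a check of the tissue, the mesenchymal transcripts Vim and Fn1 had signals of 17933 to 24503 and 8039 to 13901 in the 8 tumours, and the epithelial markers Epcam and Cdh1 15.99 to 62.6 and 19.5 to 80.1; levels of different probes are not comparable. The tissue is bulk tumour, so that more cells of a type and more RNA per cell cannot be told apart.

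Several of the 8 libraries stood apart. Isotype replicates 1 and 2 had a raised dim end, with a median signal of 30.1 and 37.2 over the 300 genes of mean signal under 50. This median was 0 and 12.5 in isotype replicates 3 and 4 and 2.27 to 10.6 in the combination mice. Isotype replicate 3 had 155 genes at 0, the remaining controls 25 to 48. Combination replicate 3 had the highest total signal of the series, 511105. For most lists, counts of calls are therefore also given without isotype replicates 1 and 2, and without combination replicate 3.

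In the tumours given both agents, 6 of 10 MHC class II genes, 5 of 6 Fc receptor genes, 8 of 14 interferon-gamma response genes and 11 of 29 macrophage genes were higher than in isotype tumours, as was the chemokine Cxcl9. A smaller set was lower, among them Mmp9, Dll4 and Cdh5. The mast cell proteases Cma1 and Tpsab1 were also lower, but both calls were lost without isotype replicate 1 or 2. In limma with Benjamini-Hochberg adjustment over the 750 genes, 148 genes (19.7%) passed an adjusted p of 0.05, of which 129 (17.2%) were higher and 19 (2.53%) lower. Unadjusted, 257 genes had a p under 0.05. The number rests on the 6-group fit and on scaling: 0 passed with these 2 groups alone in the fit or without the 4 libraries of high dim signal, and after quantile normalization 91 were higher and 104 lower. Among the 129 risers 83 rose at least 2-fold, and the median log2 change was 1.16, with a range of 0.30 to 4.13. The median of the 19 fallers was -1.56, that of all tested genes 0.05. A fold here is 2 raised to the log2 change, and since 1 was added to each value it understates changes of dim genes.

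Risers were mostly bright and fallers mostly dim. Of the 129 risers 120 had a mean signal over all 22 mice of at least 50, against 8 of the 19 fallers and 450 of the 750 tested genes. Over all tested genes, every combination mouse lay above every isotype mouse in 127 (16.9%) and below in 16 (2.13%). For 111 of the 129 risers and 10 of the 19 fallers the groups were separated in this way.

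**Figure D1:**
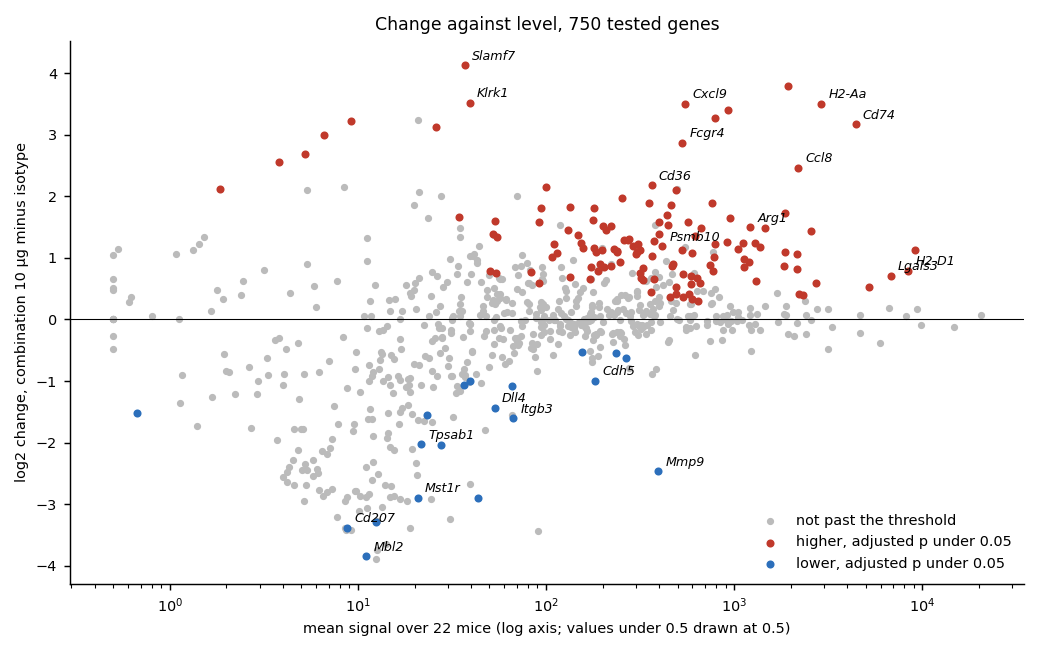
Log2 change, combination 10 µg minus isotype (vertical axis), against mean signal over 22 mice (log axis) for 750 genes; red points passed higher, blue points passed lower, grey points did not pass. The 129 risers lie mainly to the right, at mean signals of at least 50, and the fallers mainly to the left, where grey points also spread widely.

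The combination mice differed among themselves. Replicate 3 was the highest of the 4 combination mice for 119 of the 129 risers, against 3, 2 and 5 genes for replicates 1, 2 and 4. Its median log2 value over the isotype mean among the risers was 1.94, compared with 0.95, 0.75 and 0.96 in the other mice. The median signal over all measured genes was also higher in its library, at 130.8 against 75.6, 89.8 and 96.2 in replicates 1, 2 and 4. Its housekeeping genes were not higher, with a mean log2 signal of 8.83 against 8.85, 8.86 and 8.86. The ranking was made for the risers only, and the part of the higher median signal in it was not tested. Without replicate 3 all 129 risers and 19 fallers kept their direction, with median log2 changes of 0.92 and -1.74, and 54 and 9 of them passed. The genes were chosen in the fit that held the 3 other mice and the same controls, so the kept direction is no independent result. By the medians given, these 3 mice were at a smaller distance above the isotype mean.

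The controls differed among themselves as well. Isotype replicate 2 was the lowest isotype mouse for 77 of the 129 risers, and replicate 1 the highest for 12 of the 19 fallers. Against isotype replicates 3 and 4 alone, all 148 genes kept their direction, with medians of 0.97 and -1.19, and 19 risers and 2 fallers passed. The genes were chosen with these controls and the same combination mice in the fit, so the kept direction is no independent result. Against replicates 1 and 2 alone the medians were 1.41 and -2.13. The fallers thus stood further from the controls with the raised dim end, and the part of that raised end in their fall was not tested.

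**Figure D2:**
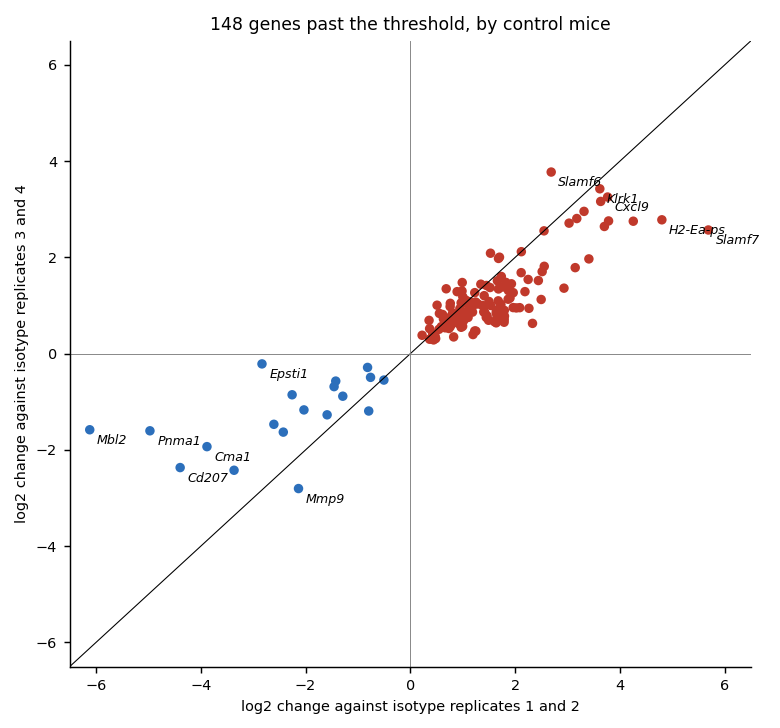
Log2 change of the 148 genes past the threshold against isotype replicates 1 and 2 (horizontal) and against isotype replicates 3 and 4 (vertical); red points rose, blue points fell, and the diagonal marks equality. All points lie in the quadrant of their call, which is no independent result because the genes were chosen on these mice. Most fallers lie above the diagonal, with a median of -1.19 against replicates 3 and 4 and -2.13 against replicates 1 and 2.

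MHC class II molecules present peptides to CD4 T cells. Their genes were among the largest rises, and 6 of the 10 measured members rose, with 0 falling and a list median log2 change of 2.59 against 0.05 over all genes. H2-Aa, which encodes the alpha chain of I-A, had signals of 324, 156, 738 and 553 in the isotype mice and 4140.3, 2186, 12583 and 3022 in the combination mice. The lowest combination mouse was well above the highest isotype mouse, and replicate 3 stood highest. The log2 rise was 3.50 ± 0.55 (SE, n = 4 and 4), or 11.3-fold (adjusted p = 0.000879).

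H2-Eb1, the beta chain of I-E, was at 129, 77.9, 156 and 124 in isotype mice and 1260.3, 534, 4321 and 853 in combination mice. Isotype replicate 2 was the lowest control and combination replicate 3 the highest treated mouse, the groups did not overlap, and it rose by 3.40 ± 0.56 on the log2 scale (adjusted p = 0.000879). H2-Ab1, the partner chain of H2-Aa, was at 129, 52.3, 190.2 and 149.5 in isotype and 1027, 561, 3306 and 904 in combination mice, a rise of 3.27 ± 0.54. Cd74, the invariant chain that escorts class II molecules to the endosome, was at 574, 409, 1244 and 822 in isotype and 6123, 2861, 17463 and 5204 in combination mice, a rise of 3.17 ± 0.50. In all of these genes combination replicate 3 was the highest treated mouse and replicate 2 the lowest.

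H2-Ea-ps, listed under an older symbol of the I-E alpha chain, was at 182, 51.2, 506 and 308 in isotype and 2918, 1401, 7704 and 1731 in combination mice, and rose by 3.79 ± 0.68 on the log2 scale (adjusted p = 0.00213). H2-Dma, a chain of the peptide editor H2-DM, rose less, by 1.31 ± 0.35. Ciita, the master transactivator of class II genes, did not pass, with a log2 change of 2.01, and neither did H2-DMb1 with 1.34. The list held 6 rises without isotype replicates 1 and 2, H2-Dma not among them, and 5 without combination replicate 3.

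Interferon-gamma response genes rose in 8 of 14 cases, with 0 falling and a median of 0.92, while the transcript of interferon-gamma itself did not pass. Gbp5, a guanylate-binding protein of cell-autonomous defence, was at 139, 89.5, 185 and 123 in isotype and 493, 323, 1266 and 278 in combination mice. The groups did not overlap, and the rise was 1.90 ± 0.41 on the log2 scale (adjusted p = 0.00556). Gbp2b, of the same family, rose from 1258 ± 109 to 3818 ± 2143 (mean ± SD, n = 4 each).

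Cd274, the target of avelumab, was at 206, 215, 225 and 129 in isotype and 707, 407, 1876 and 412 in combination mice. All 4 combination mice lay above the highest isotype mouse, and the log2 rise was 1.85 ± 0.47 (adjusted p = 0.0119); without combination replicate 3 it was no longer past the threshold. Nos2, the inducible nitric oxide synthase, was at 34.2, 32.6, 32.2 and 30.0 in isotype and 61.9, 63.4, 199 and 70.7 in combination mice, so that 3 combination mice stood at about the same level and replicate 3 well above them. It rose by 1.39 ± 0.44 (adjusted p = 0.0361), and the call was lost without combination replicate 3 or without isotype replicate 1, 2 or 4.

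The transcription factors Irf1 and Irf8 rose by 0.94 ± 0.25 and 0.90 ± 0.27, and the kinase Jak2 by 0.30 ± 0.10, which turned to -0.24 after quantile normalization. Ifng was at 34.2, 29.1, 0 and 11.0 in isotype and 7.32, 0, 24.5 and 4.62 in combination mice, at 0 in a mouse of each group, and did not pass (log2 change -0.85 ± 1.43, adjusted p = 0.708). Ifngr1, its receptor chain, and Ido1, a tryptophan-degrading enzyme, did not pass, with log2 changes of 0.16 and -0.95. The list held 3 rises without combination replicate 3 and 0 without isotype replicates 1 and 2.

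Chemokines and receptors that guide lymphocytes passed in 6 of 17 cases, all higher, with a list median of 0.05. Cxcl9, a ligand of CXCR3 on activated T and NK cells, had signals of 55.5, 58.1, 165 and 39.9 in isotype mice and 831, 492, 2086 and 442 in combination mice. Isotype replicate 3 was the highest control, and still under the lowest combination mouse. The rise of 3.51 ± 0.53 on the log2 scale was 11.4-fold (adjusted p = 0.000879).

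Cxcl10, another CXCR3 ligand, was at 141, 133, 258 and 204 in isotype and 534, 304, 1283 and 332 in combination mice and rose by 1.53 ± 0.36 (adjusted p = 0.00791), again with no overlap. Cxcl11 rose by 1.23 ± 0.33 and Cxcl16, the ligand of CXCR6, by 1.14 ± 0.29. Ccl5, an attractant of T cells and monocytes, was at 14.5, 53.5, 43.2 and 40.7 in isotype and 116, 62.4, 258 and 66.0 in combination mice, so that the highest control and the lowest treated mouse nearly met (log2 1.59 ± 0.49, adjusted p = 0.0308), and the call was lost without isotype replicate 1 or combination replicate 1 or 3. Cxcr3 itself did not pass, with a log2 change of -0.06, nor did Cxcr6 with 0.05. The count was 3 without combination replicate 3 and 1, that of Cxcl9, without isotype replicates 1 and 2.

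Because class II genes, Gbp5 and the CXCR3 ligands rose together, the promoters of 5 of them are shown, from 250 bases before to 50 bases after the annotated start, as given by RefSeq for GRCm38.p6, 5′ to 3′ on the strand of the gene. They are Cxcl9 at chr5:92328030-92328329 (minus strand), Cxcl10 at chr5:92348840-92349139 (minus strand), Gbp5 at chr3:142496684-142496983 (plus strand), H2-Aa at chr17:34287774-34288073 (minus strand) and H2-Eb1 at chr17:34305617-34305916 (plus strand). Capitals mark letters that match, on either strand, one of 4 patterns: the core of the interferon-stimulated response element (GAAANNGAAA), the core of the gamma-activated site (TTCNNNGAA), the CCAAT box (CCAAT) and a kappaB core (GGGANTTCC).
Cxcl9: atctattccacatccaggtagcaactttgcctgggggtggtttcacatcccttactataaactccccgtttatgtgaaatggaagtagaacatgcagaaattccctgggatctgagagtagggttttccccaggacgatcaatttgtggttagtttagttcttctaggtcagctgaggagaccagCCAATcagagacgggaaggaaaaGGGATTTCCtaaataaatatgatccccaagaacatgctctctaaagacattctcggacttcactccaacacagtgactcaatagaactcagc
Cxcl10: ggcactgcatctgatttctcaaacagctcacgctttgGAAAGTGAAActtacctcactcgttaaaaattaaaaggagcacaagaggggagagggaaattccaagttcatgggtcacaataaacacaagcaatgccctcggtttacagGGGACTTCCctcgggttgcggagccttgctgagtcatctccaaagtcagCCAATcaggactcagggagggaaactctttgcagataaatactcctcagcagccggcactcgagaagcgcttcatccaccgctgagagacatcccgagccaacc
Gbp5: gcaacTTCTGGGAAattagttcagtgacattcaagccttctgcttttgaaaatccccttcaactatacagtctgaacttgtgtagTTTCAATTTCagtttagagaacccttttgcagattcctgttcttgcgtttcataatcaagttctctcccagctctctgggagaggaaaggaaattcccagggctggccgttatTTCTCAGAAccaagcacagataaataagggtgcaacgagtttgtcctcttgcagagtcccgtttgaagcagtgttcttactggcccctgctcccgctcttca
H2-Aa: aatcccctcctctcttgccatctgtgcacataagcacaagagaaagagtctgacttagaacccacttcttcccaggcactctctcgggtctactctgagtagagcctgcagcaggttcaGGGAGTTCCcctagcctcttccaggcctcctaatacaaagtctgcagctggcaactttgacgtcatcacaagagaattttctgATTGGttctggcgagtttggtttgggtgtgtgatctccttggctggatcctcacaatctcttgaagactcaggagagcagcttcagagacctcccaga
H2-Eb1: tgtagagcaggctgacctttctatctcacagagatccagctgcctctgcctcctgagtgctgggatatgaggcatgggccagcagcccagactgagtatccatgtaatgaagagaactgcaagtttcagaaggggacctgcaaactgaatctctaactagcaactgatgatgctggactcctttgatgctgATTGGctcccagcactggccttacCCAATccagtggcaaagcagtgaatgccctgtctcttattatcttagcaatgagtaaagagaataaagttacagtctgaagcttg
The windows of Cxcl9, Cxcl10 and H2-Aa each held a CCAAT box and a kappaB core, that of H2-Eb1 a pair of CCAAT boxes, and that of Gbp5 an interferon-stimulated response element core and 2 gamma-activated site cores. Cxcl10 also held an interferon-stimulated response element core, 213 bases before the start. Matches of different patterns did not overlap in these 5 windows. Promoters were found for 94 of the 129 risers, 12 of the 19 fallers and 549 of the 750 tested genes.

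The interferon-stimulated response element core was in the window of 19 of the 94 risers (20.2%) and 0 of the 12 fallers, compared with 9.11% of the tested genes and 3.99% of all 27025 genes with a promoter. The gamma-activated site core was in 15 risers (15.96%), 14.2% of tested genes and 9.55% of all genes. The CCAAT box was in 33 risers (35.1%), 37.0% of tested genes and 41.1% of all, and the kappaB core in 5 risers (5.32%), 3.28% and 1.92%. The panel was designed around immune genes, so the tested genes are the nearer background. Other patterns were searched too and are not reported; a match is a description of the letters and not a binding site.

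MHC class I presentation shows peptides from inside the cell to CD8 T cells and NK cells. Of 19 members 9 rose and 0 fell, with a median of 0.68 against 2.59 for the class II list. Psmb10, a catalytic subunit of the immunoproteasome, was at 221, 199.9, 268 and 303 in isotype mice and 613, 469, 732 and 462 in combination mice. The groups did not overlap, and the gene had the smallest p of the comparison, with a log2 rise of 1.19 ± 0.16 (2.28-fold, adjusted p = 0.000827).

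H2-K1, a classical class I heavy chain, was at 760.4, 699.7, 913 and 774 in isotype and 1416, 1565, 2131 and 1215 in combination mice and rose by 0.98 ± 0.16 (adjusted p = 0.000879). H2-D1, also a classical heavy chain, was at 6547, 5422, 7041 and 5695 in isotype and 9518, 10314, 14004 and 9247 in combination mice, a rise of 0.79 ± 0.16. The non-classical H2-T23 rose by 1.06 ± 0.26, the peptide transporter genes Tap1 and Tap2 by 1.01 ± 0.21 and 0.68 ± 0.17, and the immunoproteasome subunits Psmb9 and Psmb8 by 0.89 ± 0.19 and 0.59 ± 0.15. Nlrc5, the transactivator of class I genes, rose by 0.73 ± 0.22. The constitutive proteasome subunit Psmb7 did not pass, with -0.03.

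The class I count depended on scaling more than the class II count did: after quantile normalization 2 class I genes rose and 2 fell, and after centring on each library's median 4 rose, while 7 and 6 class II genes rose. It was 6 without combination replicate 3 and 3 without isotype replicates 1 and 2. Centring on the library median lowered the median change of all genes by 0.19 and quantile normalization by 0.15.

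Type I interferon genes, sensors and effectors of antiviral defence, rose in 13 of 34 cases, with 0 falling and a median of 0.59. Zbp1, a sensor of nucleic acids in Z conformation, was at 264, 234, 379.9 and 277 in isotype and 880.0, 678, 1544 and 562 in combination mice. The groups were separate, and the rise was 1.58 ± 0.32 (adjusted p = 0.00441). Ifi44 was at 455, 405, 683 and 564 in isotype and 1263, 1083, 2061 and 846 in combination mice, a rise of 1.27 ± 0.30, and Irf7, the transcription factor that amplifies the type I response, at 287, 189, 184 and 170.1 in isotype and 365, 396, 721 and 338 in combination mice, a rise of 1.09 ± 0.29.

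Smaller rises were seen for Stat2 (0.90), the RNA sensor Ifih1 (0.76), the ubiquitin-like modifier Isg15 (0.70) and the oligoadenylate synthetase Oas2 (0.87). Mx1 was listed at 0 in all mice, and Ifit1 did not pass, with 0.82. The interferon genes Ifna1, Ifna2, Ifna4 and Ifnb1 did not pass either, with log2 changes of -3.43 to -0.73. These calls moved with the settings: 2 rose without combination replicate 3, 0 without isotype replicates 1 and 2, and after quantile normalization 5 rose and 3 fell.

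Fc receptors, through which macrophages, neutrophils and NK cells bind antibody, rose in 5 of 6 measured genes, with a median of 1.28. Fcgr4, an activating receptor for IgG, had signals of 121, 96.5, 146 and 124 in isotype mice and 898, 427, 2197 and 742 in combination mice. The isotype mice lay close together and every combination mouse was far above them, with a log2 rise of 2.87 ± 0.46 (7.31-fold, adjusted p = 0.000879). Fcgr1, the high-affinity IgG receptor, was at 198, 130.2, 171 and 294 in isotype and 561, 370.0, 1213 and 565 in combination mice and rose by 1.69 ± 0.35 (adjusted p = 0.00501).

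Fcer1g, the signalling chain shared by the activating receptors, rose by 1.36 ± 0.31, Fcgr3 by 1.19 ± 0.27 and the inhibitory receptor Fcgr2b by 1.10 ± 0.29. Activating and inhibitory receptors were therefore both higher, and Syk, the kinase downstream of the signalling chain, did not pass, with 0.45. The count was 4 without combination replicate 3 and 1, that of Fcgr4, without isotype replicates 1 and 2.

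Macrophage and monocyte genes rose in 11 of 29 cases and fell in 0, with a median of 0.76. Cybb, the catalytic subunit of the phagocyte NADPH oxidase, was at 123, 128, 202 and 240.1 in isotype mice and 661, 448, 1488 and 612 in combination mice. The lowest combination value was above the highest isotype value, and the rise was 2.11 ± 0.35 on the log2 scale (adjusted p = 0.000879). Cd36, a scavenger receptor and fatty acid transporter, was at 106, 114, 156 and 218 in isotype and 517, 332, 1248 and 841 in combination mice, with a rise of 2.18 ± 0.42 (adjusted p = 0.00387).

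Arg1, which degrades arginine in alternatively activated myeloid cells, was at 518, 704, 986 and 1026 in isotype and 1579, 1527, 2822 and 3466 in combination mice. Here replicate 4, not replicate 3, was the highest, the groups did not overlap, and the rise was 1.50 ± 0.29 (adjusted p = 0.00351). Msr1, a scavenger receptor, was at 705, 532, 1005 and 1115 in isotype and 1619, 1557, 2746 and 1916 in combination mice, a rise of 1.24 ± 0.26.

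The identity markers Emr1 (F4/80), Itgam (CD11b), Lyz2 and Cd68 rose by 1.02 ± 0.29, 1.07 ± 0.22, 1.13 ± 0.32 and 0.80 ± 0.25, and Cd14 by 0.65 ± 0.18. Csf1r and Mrc1, the latter a mannose receptor, did not pass, with 0.55 and 0.76. The summed signal of the 29 genes was 11594 to 20761 in the isotype and 20773 to 43335 in the combination mice, and the part of a larger number of macrophages in these rises was not tested. Without combination replicate 3 the count was 5, and without isotype replicates 1 and 2 it was 1, that of Cybb; after quantile normalization 8 rose and 1 fell.

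**Figure D3:**
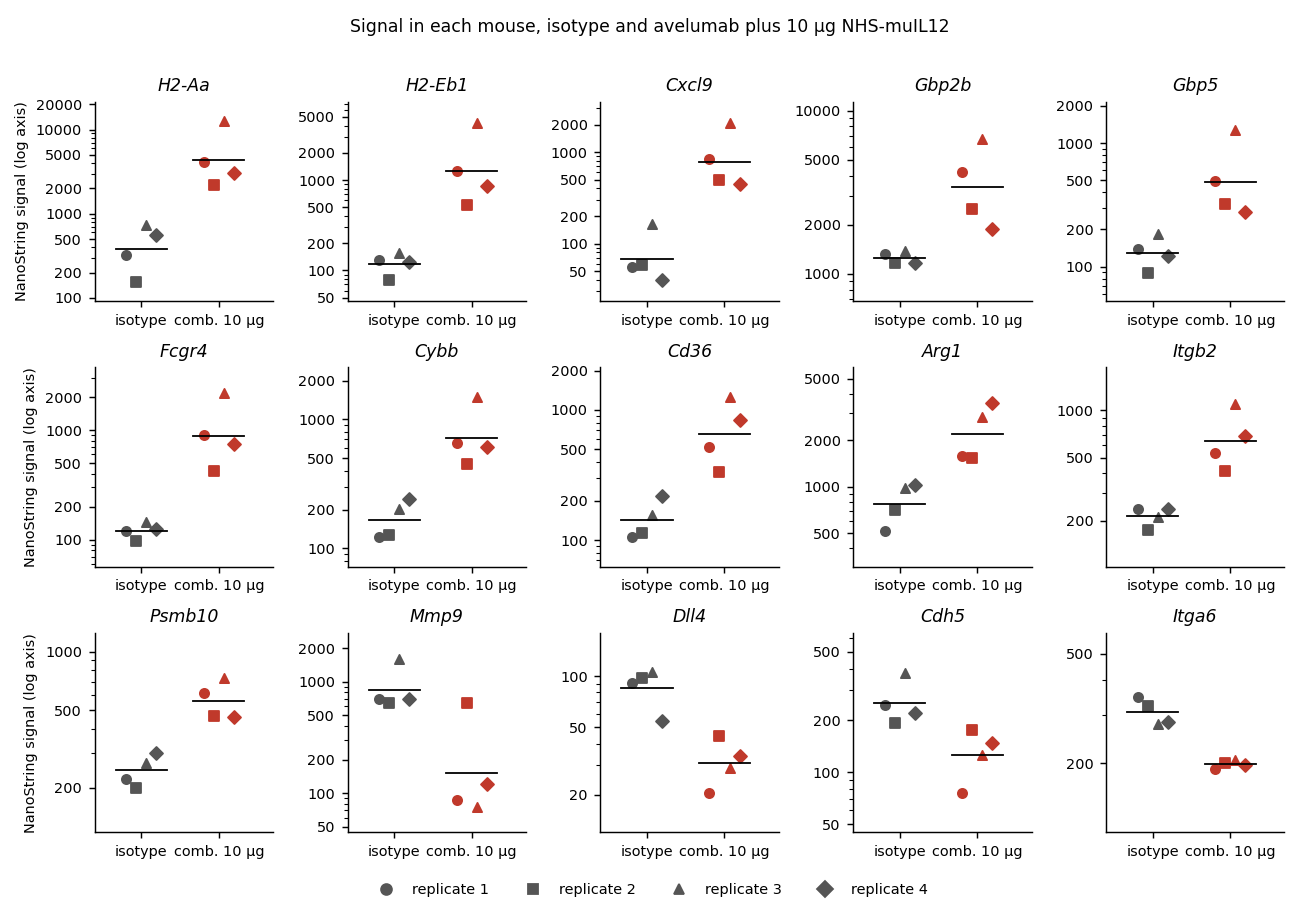
Signal of 15 genes in each of the 4 isotype mice (grey) and 4 combination 10 µg mice (red), on log axes whose ranges differ by gene; symbols give the replicate number, which does not pair mice, and lines the mean on the log2(signal + 1) scale. Groups are separate in all genes but Mmp9, and combination replicate 3 (triangles) is the highest treated mouse in the risers other than Arg1.

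Chemokines of the myeloid list passed in 6 of 29 cases (20.7%), all higher, with a list median of -0.03. Of all genes 17.2% were higher, so the share of the list was near the background. Ccl8, a chemoattractant of monocytes and lymphocytes, was at 936, 229, 1084 and 1306 in isotype and 2316, 2492, 10665 and 4621 in combination mice. Isotype replicate 2 was far below the other controls, and combination replicate 3 far above the other treated mice. The rise was 2.47 ± 0.65 (adjusted p = 0.0141) and was not past the threshold when either of these mice was left out.

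Ccl6 was at 298, 349.9, 444 and 627 in isotype and 864, 1005, 2296 and 2801 in combination mice, with no overlap and a rise of 1.89 ± 0.44 (adjusted p = 0.00749). The monocyte attractants Ccl2 and Ccl7 rose by 1.14 ± 0.31 and 1.52 ± 0.38, Ccl9 by 1.49 ± 0.43, and the receptor Ccr1 by 0.78 ± 0.19. Ccr2, the receptor for CCL2 and CCL7, did not pass, with 1.17. The count was 2 without combination replicate 3 and 0 without isotype replicates 1 and 2.

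Genes of complement, a cascade of plasma proteins that tags and lyses targets, rose in 7 of 30 cases and fell in 1. Calls made up 26.7% of this list, against 19.7% of all genes. Cfb, the alternative pathway protease, was at 86.6, 59.3, 149 and 126 in isotype and 236, 249.9, 948 and 431 in combination mice, without overlap, and rose by 1.98 ± 0.44 (adjusted p = 0.00647). The C1q chain genes C1qa and C1qb rose by 1.25 ± 0.34 and 1.18 ± 0.34, the C3a receptor C3ar1 by 1.22 ± 0.34, properdin (Cfp) by 1.22 ± 0.39 and C4b by 1.48 ± 0.48. C3 itself did not pass, with 1.10. The single fall was Mbl2, a mannose-binding lectin, at 62.0, 75.6, 0 and 7.95 in the isotype mice and listed at 0 in all combination mice (adjusted p = 0.0459), so that isotype replicates 1 and 2 carried its signal. Complement held 1 rise and 0 falls without combination replicate 3, 0 calls without isotype replicates 1 and 2, and 3 rises and 5 falls after quantile normalization.

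Lysosomal genes rose in 4 of 12 cases (33.3%), against 17.2% of all genes. Ctss, a cathepsin that cleaves the invariant chain in antigen-presenting cells, was at 749, 496, 1042 and 1242 in isotype and 2289.7, 1844, 5367 and 2633 in combination mice and rose by 1.74 ± 0.37 (adjusted p = 0.00501), with no overlap. Ctsh rose by 1.27 ± 0.31, Lamp2 by 0.63 ± 0.14 and Lamp1 by 0.42 ± 0.11, the last turning to -0.098 after quantile normalization. The endosomal RNA receptor Tlr8 rose by 1.46 ± 0.38, its downstream factor Irf5 by 1.16 ± 0.22 and the lipopolysaccharide receptor Tlr4 by 0.85 ± 0.25. These were 3 of 21 genes in the Toll-like receptor list (14.3%), against 17.2% of all genes. The lysosomal count was 3 and the Toll-like receptor count 1 without combination replicate 3, and both were 0 without isotype replicates 1 and 2. Within the interleukin-1 list, 2 of 15 genes rose (13.3%, against 17.2% of all genes). These were Il1rn, the receptor antagonist, by 1.29 ± 0.32 and Casp1 by 0.60 ± 0.17, while Il1b did not pass with -0.88. Without combination replicate 3, or without isotype replicates 1 and 2, 0 genes of the interleukin-1 list passed.

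Among lymphocyte genes 6 of 8 of the SLAM list rose, compared with 3 of 34 T cell, 3 of 23 NK and 4 of 25 B cell genes and 17.2% of all genes. SLAM receptors are adhesion and signalling molecules of lymphoid and myeloid cells. Of the 8 measured members, which include their adaptor Sh2d1a, 0 fell and 2 did not pass, with a median of 1.74, and Slamf7, Slamf6 and Sh2d1a started from signals near 0. Slamf7 was at 0, 0, 9.13 and 6.43 in isotype and 71.0, 28.6, 193 and 15.9 in combination mice, the largest log2 rise of the comparison, 4.13 ± 1.09 (adjusted p = 0.0141). Of the controls 2 were at 0, and the call was lost without isotype replicate 2 or combination replicate 3.

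Slamf6 was at 0, 3.50, 0 and 0 in isotype and 9.35, 5.45, 31.6 and 15 in combination mice (log2 3.23 ± 0.86, adjusted p = 0.0152) and failed to pass without combination replicate 3. Cd48, a widely expressed ligand of the family, was at 35.8, 12.8, 50.5 and 65.0 in isotype and 91.3, 94.0, 246 and 119.7 in combination mice and rose by 1.81 ± 0.52, a call lost without isotype replicate 2 or combination replicate 3. Ly9 rose by 1.67 ± 0.42 and Cd84 by 1.09 ± 0.23, and both calls held in all 8 fits with 1 mouse left out. Sh2d1a, which encodes the adaptor SAP, was at 0, 7.56, 17.3 and 6.51 in combination mice and listed at 0 in each isotype mouse (adjusted p = 0.0312), and it passed in only 2 of the 8 fits. The list held 2 rises without combination replicate 3 and 0 without isotype replicates 1 and 2.

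Of the NK receptors 3 of 23 rose, with a median of 0.13. Klrk1, which encodes the activating receptor NKG2D, was at 3.03, 4.66, 1.84 and 9.48 in isotype mice and 56.9, 38.1, 161 and 31.0 in combination mice. The groups were far apart, with a log2 rise of 3.52 ± 0.66 (adjusted p = 0.0035) that held in all 8 fits with 1 mouse left out. Klra2, of the Ly49 receptors, was at 45.7, 79.1, 90.6 and 106 in isotype and 219, 161, 427 and 210.3 in combination mice and rose by 1.61 ± 0.35, and Klra5, at 0, 0.0114, 0 and 6.43 in isotype and 8.34, 12.8, 6.61 and 12.2 in combination mice, by 2.69 ± 0.59; Ly49 genes are closely similar in sequence, so these probes may share signal. Ncr1, which marks NK cells, did not pass, with 44.0, 38.4, 12.8 and 25.5 in isotype against 34.6, 31.8, 32.5 and 22.5 in combination mice and a log2 change of 0.13 ± 0.37. The list held 3 rises without combination replicate 3 and 1, that of Klrk1, without isotype replicates 1 and 2.

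Among cytotoxic effectors 1 of 10 genes rose (10%, against 17.2% of all genes). Gzma, a granzyme, was at 22.7, 10.5, 61.4 and 26.2 in isotype and 45.8, 143, 79.0 and 71.6 in combination mice, with 1 control above 1 treated mouse, and rose by 1.60 ± 0.49 (adjusted p = 0.0284), and passed in 4 of the 8 fits. Neither Gzmb, with 0.38 ± 1.00, nor Prf1, which encodes perforin, with 0.74 ± 0.70, passed. The summed signal of the 10 genes was 114 to 404 in isotype and 190 to 601 in combination mice, and 0 passed without combination replicate 3 or without isotype replicates 1 and 2.

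Of 34 T cell genes 3 rose, with a median of -0.10. Ptprc, the leukocyte marker CD45, was at 155, 115, 225 and 205 in isotype and 258, 303, 717 and 338 in combination mice, with no overlap, and rose by 1.12 ± 0.32 (adjusted p = 0.0213). Lck rose by 0.76 ± 0.26 and Txk, a kinase of T and NK cells, by 2.99 ± 0.88, from signals of at most 2.63 in isotype mice. Cd3e was at 30.9, 37.2, 1.84 and 26.2 in isotype and 25.5, 15.99, 78.1 and 17.8 in combination mice, with overlapping groups, and did not pass (log2 0.71 ± 0.78, 95% interval -0.93 to 2.35, adjusted p = 0.568).

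Cd8a was at 1.39, 23.3, 0 and 4.91 in isotype and 0.245, 5.45, 51.3 and 10.3 in combination mice, highest in combination replicate 3, and its change of 0.95 ± 1.36 did not pass. Cd4 did not pass, with -1.06 ± 1.43, and Foxp3 was at 0 in every isotype mouse and in 2 combination mice. The summed T cell signal was 1347 to 2156 in isotype and 1247 to 3179 in combination mice, with replicate 3 the highest. None of the 3 T cell calls held without combination replicate 3 or without isotype replicates 1 and 2.

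Of the B cell list 4 of 25 genes rose: Pou2f2, which encodes the factor OCT2, at 0, 8.15, 0 and 14.0 in isotype and 28.6, 22.3, 39.7 and 28.2 in combination mice (log2 3.13 ± 0.66, adjusted p = 0.00501), Cd38 (1.51 ± 0.40), Ly86 (1.29 ± 0.36) and Cd180 (1.11 ± 0.28). Of these, Cd38, Ly86 and Cd180 are expressed by myeloid cells too. The B cell gene Ms4a1, which encodes CD20, did not pass, with -1.58. The list held 2 rises without combination replicate 3 and 1, that of Pou2f2, without isotype replicates 1 and 2.

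The interleukin-12 axis itself gave 1 call in 14 genes (7.14%, against 19.7% of all genes). Il12rb2, the receptor chain that signals to STAT4, was at 3.28, 0, 13.8 and 4.62 in combination mice, while every isotype mouse was listed at 0. It passed (adjusted p = 0.0395), but not in 6 of the 8 fits that left out 1 mouse. Il12rb1 was at 78.4, 63.9, 34.7 and 39.9 in isotype and 101, 70.8, 142 and 74.4 in combination mice, with isotype replicate 1 above combination replicates 2 and 4, and did not pass (log2 0.85 ± 0.35, adjusted p = 0.101). Stat4 and Tbx21, which carry the interleukin-12 signal and the type 1 programme in lymphocytes, did not pass, with 0.14 ± 0.97 and 0.17 ± 1.04, and neither did Il18 and Il18r1, with 0.45 ± 0.18 and 0.14 ± 0.49. Il12a and Il12b, which encode the chains of interleukin-12, were dim in both groups, with -0.38 and -0.97.

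Of 14 inhibitory checkpoint genes 2 rose (14.3%, against 17.2% of all genes). Tnfrsf14, which encodes HVEM, was at 96.5, 65.1, 79.6 and 102 in isotype and 156, 140.3, 370.2 and 160.3 in combination mice and rose by 1.16 ± 0.28 (adjusted p = 0.01). Lgals3, galectin-3, a product of macrophages and tumour cells, was at 5826, 5915, 5975 and 4389.6 in isotype and 10329, 8299, 10221 and 7469.5 in combination mice and rose by 0.71 ± 0.16. Pdcd1, which encodes PD-1, was at 113, 82.5, 3.06 and 7.19 in isotype and 2.27, 12.8, 44.1 and 6.51 in combination mice and did not pass, with isotype replicates 1 and 2 far above the rest. Pdcd1lg2, the second ligand of PD-1, did not pass either, with 0.37 ± 1.38. The list held 2 rises without combination replicate 3 and 1, that of Lgals3, without isotype replicates 1 and 2.

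Of 18 dendritic cell and costimulation genes 2 rose and 1 fell (16.7%, against 19.7% of all genes), so the share of the list was near the background. Cd86, a ligand of CD28 on antigen-presenting cells, was at 75.2, 61.6, 65.0 and 66.6 in isotype and 142, 121, 243 and 99.9 in combination mice and rose by 1.09 ± 0.27 (adjusted p = 0.0104), and Bst1 rose by 0.87 ± 0.23. Cd80, with -0.01, and Cd40, with 0.52, did not pass. Cd207, langerin of dendritic and Langerhans cells, fell from 44.0, 24.4, 6.70 and 7.95 in isotype mice to 0, 0, 5.72 and 0 in combination mice (-3.38 ± 0.95, adjusted p = 0.019), a call lost without isotype replicate 1 or 2. Of this list of 18 genes, 1 rose and 1 fell without combination replicate 3, and 0 passed without isotype replicates 1 and 2. In the list of interleukin-6, interleukin-10 and TGF-beta genes, 1 of 24 rose and 1 fell (8.33%, against 19.7% of all genes). The receptor gene Il10ra was at 17.8, 16.3, 42.0 and 65.8 in isotype and 107, 89.8, 299.6 and 119.7 in combination mice and rose by 2.15 ± 0.43 (adjusted p = 0.00441). The receptor gene Il11ra1 had a log2 change of -1.56, a call lost in 6 of the 8 fits. Among common gamma chain cytokine genes 2 of 15 rose (13.3%, against 17.2% of all genes). The cytokine gene Il15 was 1 of them, by 0.79 ± 0.26, a call lost in 4 of the 8 fits. None of the 31 TNF and NF-kappaB genes passed, with a median of -0.02; after quantile normalization 4 fell.

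The falls were fewer than the rises, and those of Mmp9, Dll4, Cdh5, Itgb3, Itga6 and Tab1 were the 6 of 19 that held in all 8 fits with 1 mouse left out. Mmp9, a gelatinase of neutrophils, macrophages and stroma, had signals of 693, 640.5, 1605 and 699 in isotype mice and 87.2, 644, 75.4 and 122 in combination mice. Combination replicates 1, 3 and 4 lay below every isotype mouse, whereas replicate 2 lay within the isotype range. The fall was 2.47 ± 0.57 on the log2 scale (adjusted p = 0.00703).

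Mmp9 was the 1 fall among the 21 genes of the neutrophil list, in which 1 gene rose. The list median was -0.40, against 0.05 over all genes, of which 17.2% rose and 2.53% fell. Fpr2, a formyl peptide receptor of neutrophils and macrophages, was at 86.6, 108, 57.8 and 74.2 in isotype and 225, 176, 705 and 224 in combination mice and rose by 1.81 ± 0.38 (adjusted p = 0.00501), without overlap. S100a8, with 0.06, and the chemokine receptor Cxcr2, with -1.02, did not pass, and Camp was at 0 in all 8 mice. The list held 1 rise and 1 fall without combination replicate 3 and without isotype replicates 1 and 2.

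Of 38 genes of vessels, stroma and matrix 5 fell and 1 rose, with a median of -0.29. Over all genes 2.53% fell and 17.2% rose. Dll4, the Notch ligand of endothelial tip cells, was at 91.6, 97.6, 105 and 54.4 in isotype and 20.5, 44.4, 28.9 and 33.9 in combination mice. The groups were separate, and the fall was 1.43 ± 0.30 (adjusted p = 0.00501). Cdh5, VE-cadherin of endothelial junctions, was at 247, 194, 379 and 220.3 in isotype and 76.1, 176, 126 and 148 in combination mice, with no overlap and a fall of 0.99 ± 0.25 (adjusted p = 0.0116).

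Itgb3, the beta chain of an integrin of angiogenic endothelium and platelets, was at 175, 151, 161 and 49.1 in isotype and 18.4, 51.8, 52.2 and 46.1 in combination mice, with isotype replicate 4 inside the combination range, and fell by 1.60 ± 0.38 (adjusted p = 0.00858). F2rl1, a protease-activated receptor, fell by 1.09 ± 0.29, and Cspg4, the pericyte marker NG2, by 2.04 ± 0.67, a call lost in 5 of the 8 fits. Other endothelial genes did not pass, among them Pecam1 (-0.20), Kdr (-0.01), Tek (-0.92) and Vwf (-1.08). The single rise was Icam1, an adhesion molecule induced on activated endothelium, at 1.02 ± 0.33, a call lost in 5 of the 8 fits. After quantile normalization 16 genes of the list fell; without combination replicate 3 the count of falls was 3, and without isotype replicates 1 and 2 it was 2.

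Of 13 mast cell and eosinophil genes 2 fell and 1 rose, where 2.53% of all genes fell and 17.2% rose. Cma1, a chymase, was at 178, 101, 35.9 and 32.3 in isotype and 1.26, 2.29, 43.2 and 20.7 in combination mice, where replicate 3 stood within the isotype range, and fell by 2.91 ± 0.96 (adjusted p = 0.042). Tpsab1, a tryptase, was at 52.2, 33.7, 15.2 and 36.9 in isotype and 6.31, 4.40, 7.50 and 11.2 in combination mice, without overlap, and fell by 2.03 ± 0.57 (adjusted p = 0.0193). Both calls were lost without isotype replicate 1 or 2; that of Cma1 also without combination replicate 1 or 2, and that of Tpsab1 without combination replicate 3. Kit, the stem cell factor receptor of mast cells, did not pass with -1.19, and Il1rl1, the interleukin-33 receptor, rose by 0.52 ± 0.18 (adjusted p = 0.0471), though it was past the threshold in only 3 of the 8 fits. Of this list of 13 genes, 1 fell without combination replicate 3, and 0 passed without isotype replicates 1 and 2.

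Of 17 tumour and proliferation genes 1 rose and 3 fell, where 17.2% of all genes rose and 2.53% fell. Cdkn1a, which encodes the cell cycle inhibitor p21, was at 519, 579, 509 and 522 in isotype and 658, 822, 1074 and 897 in combination mice. The isotype mice were within a narrow range, every combination mouse lay above it, and the rise was 0.68 ± 0.13 (adjusted p = 0.00403). Birc5, which encodes survivin and is expressed in dividing cells, fell from 172, 195, 171 and 209 in isotype to 135, 152, 127 and 106 in combination mice, by 0.53 ± 0.18 (adjusted p = 0.0457), without overlap but with the call lost in 6 of the 8 fits. Mst1r, a receptor kinase of epithelial cells and macrophages, fell by 2.89 ± 0.88 and Pnma1 by 3.29 ± 0.98, each at mean signals of at most 51.3 in the isotype mice and with the call lost in 4 of the 8 fits. Cdk1, with -0.57, and Epcam, with -0.78, did not pass. Without combination replicate 3, or without isotype replicates 1 and 2, 1 gene rose and 0 fell.

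**Figure D4:**
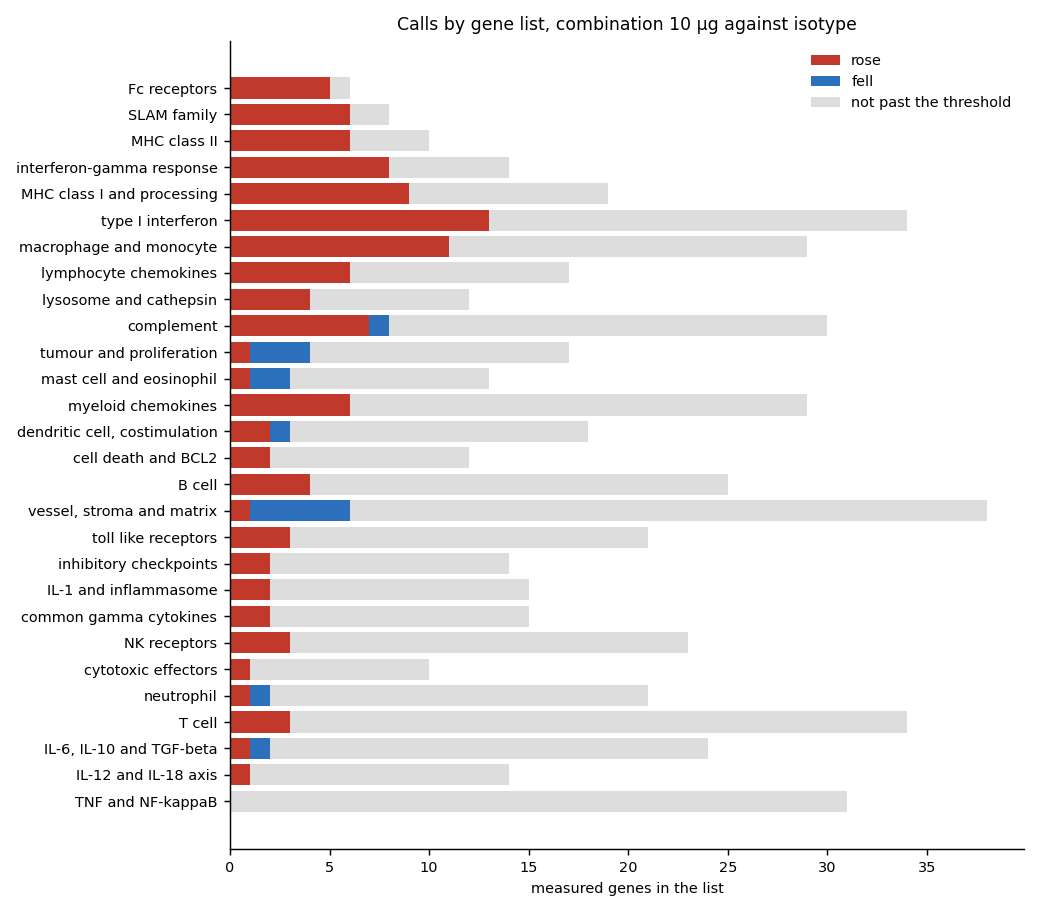
Number of measured genes per list that rose (red), fell (blue) or did not pass (grey) for combination 10 µg against isotype, lists ordered by the share that passed. Fc receptors (5 of 6), SLAM (6 of 8), MHC class II (6 of 10) and interferon-gamma response (8 of 14) have the highest shares, and vessel and stroma genes the most falls (5), a number that was 16 after quantile normalization.

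Genes in no list passed in 18 cases higher and 5 lower of 197. Itgb2, the common beta chain of the leukocyte integrins (CD18), was at 236, 173, 211 and 238 in isotype and 538, 415, 1102 and 686 in combination mice, without overlap, and rose by 1.59 ± 0.24 (adjusted p = 0.000879). Its partner chains Itgal and, above, Itgam rose as well, Itgal by 1.25 ± 0.32. Selplg, the selectin ligand of leukocytes, rose by 1.09 ± 0.24, the phagosomal metal transporter Slc11a1 by 1.83 ± 0.39, and the interferon-induced Irgm2 and Rsad2 by 1.45 ± 0.38 and 1.38 ± 0.43.

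Itga6, an integrin chain of epithelial and endothelial cells, was at 349, 323, 277 and 281 in isotype and 190.4, 199, 205 and 197 in combination mice. The combination mice lay close together, all were below the lowest isotype mouse, and the fall was 0.63 ± 0.15 (adjusted p = 0.00791). Tab1, a partner of the kinase TAK1, fell by 0.55 ± 0.14, Mapk11 by 1.00 ± 0.30 and the lysosomal transcription factor Tfeb by 1.07 ± 0.37, with the calls of Mapk11 and Tfeb lost in 4 and 5 of the 8 fits. Epsti1, at 7.95, 4.66, 0 and 0.344 in isotype mice and listed at 0 in the combination mice, passed with an adjusted p of 0.0402, and the call was lost in 6 of the 8 fits.

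Against avelumab alone (3 mice), the question was what 10 µg NHS-muIL12 added to avelumab. Here 127 genes (16.9%) passed in limma with Benjamini-Hochberg adjustment, 124 higher (16.5%) and 3 lower (0.4%), with the largest rises in Slamf7 (5.29 ± 1.17), C6, Ccl8, H2-Aa and H2-Ea-ps. This comparison shares its combination mice with that against isotype. Ccl8 was at 566, 150.3 and 592 in the avelumab mice (replicates 2 to 4) and differed by 3.47 ± 0.70 on the log2 scale (adjusted p = 0.0051). H2-Aa was at 370.1, 292 and 622, a difference of 3.40 ± 0.60 (adjusted p = 0.0038), and Cxcl9 at 67.1, 109 and 73.8, a difference of 3.25 ± 0.57.

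C6, a component of the membrane attack complex, was higher than in avelumab mice by 4.14 ± 1.00 (adjusted p = 0.00969, mean signal 161 ± 175 with both agents and 7.75 ± 7.96 with avelumab), although its change against isotype, 2.00, did not pass. Ncr1, Klrc1 and Klrd1, NK cell genes that did not pass against isotype, were also higher than in avelumab mice, by 1.56 ± 0.40, 2.10 ± 0.60 and 2.26 ± 0.59. They were chosen after their values were seen: 4 of the 23 NK receptor genes were higher, against 16.5% of all genes, so the share of the list was near the background. The 3 falls were F2rl1 (-1.22 ± 0.31), Mapk11 (-0.95 ± 0.32) and Itga6 (-0.61 ± 0.16). Mmp9 was at 444, 378 and 321 with avelumab alone and did not pass here (-1.32 ± 0.61, adjusted p = 0.163). The count was 52 and 63 without avelumab replicates 2 and 3 and 61 without combination replicate 3, and 0 (166 at an unadjusted p under 0.05) with these 2 groups alone in the fit.

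Against 10 µg NHS-muIL12 alone (3 mice), the question was what avelumab added at this dose. In limma 0 of 750 genes passed (0%). The smallest adjusted p was 0.932, and 35 genes had an unadjusted p under 0.05. For Cxcl9 the difference was -0.54 on the log2 scale (95% interval -1.75 to 0.66), for H2-Eb1 -0.59 (-1.86 to 0.69) and for Fcgr4 0.06 (-0.98 to 1.11). The intervals of these genes include differences of more than 1 on the log2 scale in at least one direction, so that the result does not show that the groups were alike. Psmb10 was better bounded, at 0.07 (-0.30 to 0.44).

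The smallest p values belonged to Nfatc3, with a difference of -0.38 (95% interval -0.65 to -0.11), and Cdkn1a, with 0.41 (0.11 to 0.71), neither past the threshold. Cdkn1a was at 698, 603 and 620.0 with NHS-muIL12 alone and 618, 702 and 639.7 with avelumab alone, against 658, 822, 1074 and 897 with both, so 1 combination mouse lay within the range of the single agents. Arg1 was at 1716, 1509 and 1441 with 10 µg NHS-muIL12 alone and differed by 0.51 (-0.14 to 1.16). Tpsab1 and Cma1 differed by -1.54 (-2.84 to -0.23) and -2.56 (-4.75 to -0.37), and neither passed (adjusted p = 0.932 for each).

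The test of the interaction, whether the combination differed from the sum of the log2 changes of its single agents, also gave 0 of 750 genes (0%) in limma. The smallest adjusted p was 0.992, and 16 genes had an unadjusted p under 0.05. The interaction was -0.80 ± 0.81 for Cxcl9, -0.56 ± 0.85 for H2-Aa, 0.88 ± 0.86 for Mmp9 and 1.54 ± 0.99 for Ccl8. Lyve1, a lymphatic endothelial and macrophage receptor, and Aire, the thymic autoimmune regulator, had the smallest p values, with 3.88 ± 1.20 and -2.89 ± 0.95, and neither passed. Aire was near 0 in every group, at means of at most 6.97.

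Against avelumab with 2 µg NHS-muIL12 (4 mice), 0 of 750 genes passed in limma (0%). The smallest adjusted p was 0.32, and 35 genes had an unadjusted p under 0.05. Arg1 was among the 2 smallest p values: it was at 879, 883, 880.4 and 1416 with the 2 µg combination, below every mouse of the 10 µg combination, and differed by 1.15 (95% interval 0.55 to 1.75, adjusted p = 0.32). Elk1 was the other, at 2.11 (1.01 to 3.22). Cxcl9 differed by 0.17 (-0.94 to 1.29), H2-Eb1 by 0.21 (-0.97 to 1.39) and Tpsab1 by 0.88 (-0.33 to 2.08).

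Side by side against the same isotype mice, Cxcl9 had a log2 change of 3.51 with the 10 µg combination, 4.05 with 10 µg NHS-muIL12, 3.34 with the 2 µg combination, 1.69 with 2 µg NHS-muIL12 and 0.26 with avelumab. Arg1 had values of 1.50, 0.99, 0.35, 0.07 and -0.21 in the same order, and Tpsab1 -2.03, -0.49, -2.90, -0.08 and -0.61. For Mmp9 they were -2.47, -2.20, -1.89, -1.39 and -1.15. Over the 129 risers the median log2 change against isotype was 1.16, 1.04, 0.89, 0.35 and 0.02 in this order, and these genes were chosen for the first of the values. Over all 750 genes, 19.7%, 10.5%, 9.47%, 0% and 0% passed in these comparisons. The groups of 10 µg NHS-muIL12 alone and avelumab alone held 3 mice and the others 4, so these shares are not on equal terms. In the direct comparison of the 10 µg combination with 10 µg NHS-muIL12 alone, 0 genes passed. The comparisons share the isotype mice, so their likeness is no independent result.

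**Figure D5:**
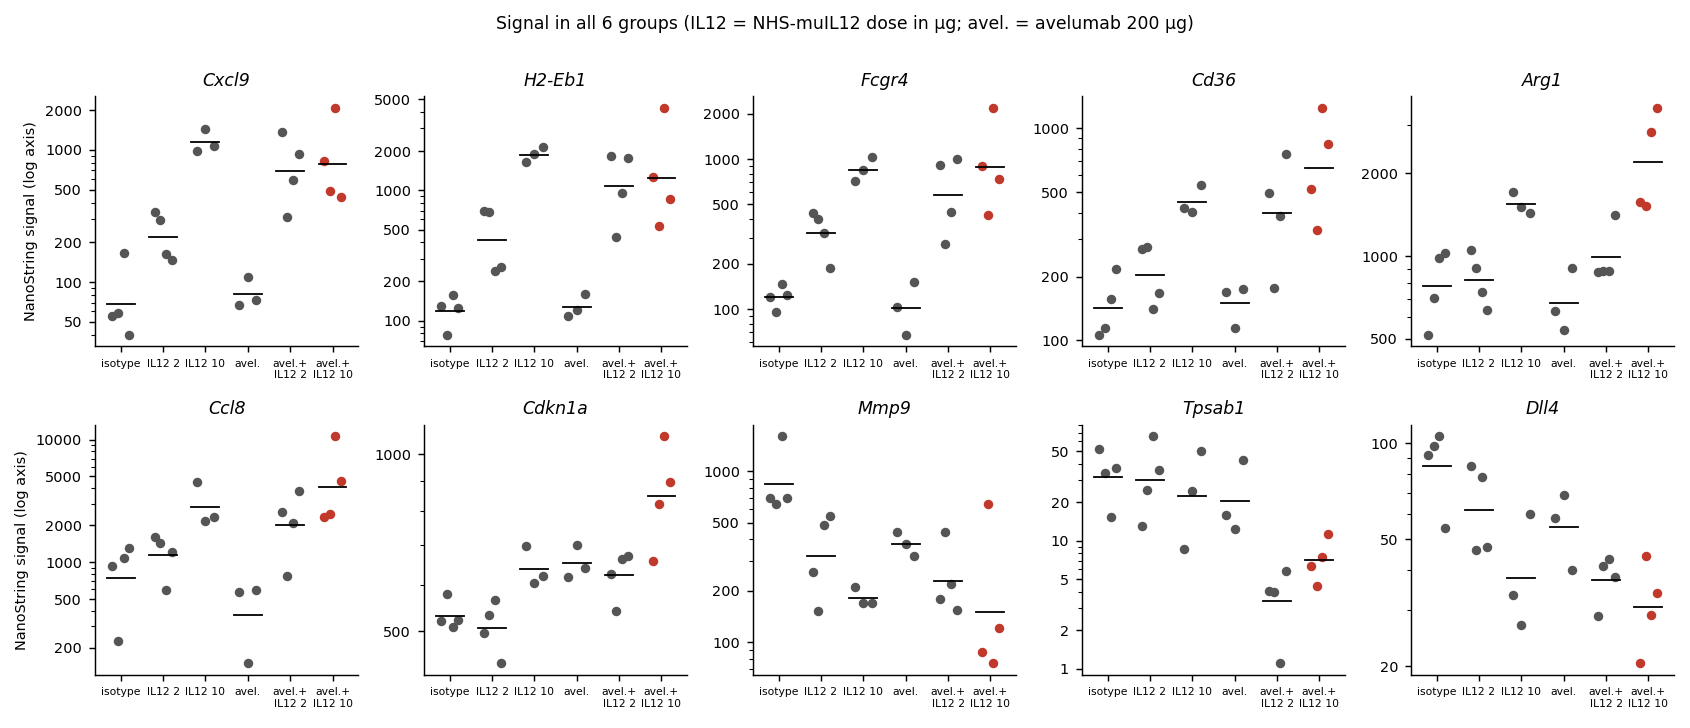
Signal of 10 genes in each mouse of the 6 groups, on log axes whose ranges differ by gene; combination 10 µg is red, lines give the mean on the log2(signal + 1) scale, and group sizes are 4, 4, 3, 3, 4 and 4 from left to right. Cxcl9 spans 442 to 2086 in red, 974.8 to 1433 with 10 µg NHS-muIL12 alone and 39.9 to 165 in isotype mice, Arg1 runs from 1527 to 3466 in red, and Tpsab1 is lowest in both combination groups.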

How the data were processed

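The deposited values are signals on a linear scale per gene and mouse, from total RNA measured with a standard NanoString protocol, per the labels' protocols. Software, background correction and scaling were not given in the sources used here. In each library the deposited signal values lie on an equally spaced scale of step 0.664 to 1.68 (largest distance from a step 1.83e-05) with a non-whole offset, and 9.44% are at 0. They are not whole reads, so no count model was used, and counting error could not be separated from differences between mice. No depth in reads is known. If 1 step is 1 count, total signal stood for 197653 to 405066 counts above background in the isotype mice. In the combination mice it stood for 356028 to 572090, and the part of this difference in the calls was not tested.

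The 20 housekeeping genes were set aside. A pseudocount of 1 was added, and limma 3.58.1 in R 4.3.3 was fitted to log2(signal + 1) with 6 groups (22 mice, 16 residual degrees of freedom), with Benjamini-Hochberg adjustment over 750 genes and a threshold of 0.05. Tables and figures used Python 3.11.15, numpy 2.4.6, pandas 2.3.3, scipy 1.17.1 and matplotlib 3.10.9. The script was tested on simulated data. Errors beside a log2 change are standard errors of the fit, with n = 4 and 4 against isotype. Of the 770 symbols 754 are current in RefSeq, 8 are older symbols and 8 did not match.

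Genes were named by a rule: the 15 largest rises and 10 largest falls past the threshold with every combination mouse on 1 side of the isotype mean, the 10 smallest p values at a mean signal of at least 50, up to 4 passing members of each of 28 lists, the 10 largest rises and all falls in no list, and a fixed set of interleukin-12, checkpoint and lymphocyte genes. Other list members named as examples, and C6, Ncr1, Klrc1 and Klrd1 against avelumab were chosen after their values were seen. For the other comparisons it was the 5 largest rises and falls, or the 2 smallest p values where none passed. Members, lists and tests were chosen with earlier results of these data known, so their counts are descriptions.

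Alternatives were other pseudocounts (10 and 32), a minimum mean signal of 50, median, housekeeping and quantile scaling, sample weights, the replicate number as a block, the 2 groups alone, leaving out each mouse, and leaving out the 4 libraries with a high dim end. Leaving out isotype replicates 1 and 2, or 3 and 4, was chosen after seeing the data. Same-numbered mice did not deviate together (correlations of -0.149, 0.00600, -0.0704 and 0.0325), so the numbers were not taken to pair mice. Some items that the counts include are not reported here.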

Additional observations from a re-analysis of the deposited data

Results flagged for a closer look

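Over the 122 named genes and both groups, 16 of 244 sets of 4 mice held a mouse whose gap to the nearest other exceeded Dixon's 95% critical value as a share of the range. Chance alone flags about 1 in 20 sets, so a pattern in these values is not read. No explanation was tested for any of them.

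In the isotype group, replicate 4 was the lowest mouse for Cd274, at 129 against 206 to 225 in the others, for Itgb3, at 49.1 against 151 to 175, and for Lgals3, at 4389.6 against 5826 to 5975. It was the highest for Klra5, at 6.43 against 0 to 0.0114. Replicate 3 was the lowest for Cd3e, at 1.84 against 26.2 to 37.2, and the highest for Mmp9, at 1605 against 640.5 to 699. Replicate 1 was the lowest for Il12a, at 0 against 5.67 to 6.99, and replicate 2 the highest for Slamf6, at 3.50 against 0 in the others.

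In the combination group, replicate 3 was the highest mouse for Cd207, at 5.72 against 0 in the others, for Nos2, at 199 against 61.9 to 70.7, for Tbx21, at 28.1 against 12.4 to 14.1, and for Tnfrsf14, at 370.2 against 140.3 to 160.3. Replicate 1 was the lowest for Itgb3, at 18.4 against 46.1 to 52.2, for Mapk11, at 15.4 against 27.2 to 30.1, and for Mst1r, at 0 against 9.34 to 13.9. Replicate 4 was the lowest for Il12b, at 5.56 against 7.32 to 7.56. Replicate 2 was not an outlier for any of these genes. For Nos2 and Tnfrsf14 the other 3 combination mice still lay above every isotype mouse.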

How the results depend on the processing

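Against isotype, the count of 148 genes was 95 after centring on the library median, 269 with sample weights (148 higher, 121 lower), 195 after quantile normalization (91 higher, 104 lower, against 129 and 19), 0 with these 2 groups alone in the fit (192 at an unadjusted p under 0.05) and 0 without the 4 libraries of high dim signal (163 at an unadjusted p under 0.05). It was 24 without isotype replicates 1 and 2 and 233 with only these as controls, both chosen after seeing the data. Leaving out 1 mouse gave 63 to 227 genes, the fewest without combination replicate 3 and the most without isotype replicate 3; it was 99 and 82 without isotype replicates 1 and 2. With the replicate number as a block, which the data did not show to pair mice, 131 genes passed. Against avelumab, the 127 genes were 58 after median centring (37 higher, 21 lower), 125 after quantile normalization (55 higher, 70 lower), 0 with these 2 groups alone, 123 with the replicate block, and 52 to 144 with 1 mouse left out. The comparisons with 10 µg NHS-muIL12 alone and with the 2 µg combination, and the interaction, gave 0 genes under every alternative run, the replicate block included. Some runs came near the threshold. Against 10 µg NHS-muIL12 alone the smallest adjusted p in limma was 0.0517 with these 2 groups alone and 0.0982 after quantile normalization. Against the 2 µg combination it was 0.0885 with sample weights. Against isotype, quantile normalization left 121 of the 129 risers and all 19 fallers in their direction. Among the named genes Casp8 turned to -0.19, Lamp1 to -0.098 and Stat6 to -0.22 under it. For the 122 named genes over 20 settings, 1852 values kept their side of the threshold, 544 were no longer past it, 6 newly passed and 3 turned. The 20 named genes that had not passed changed sign in 57 of 384 values, which are counted among the 1852. Of the 148 calls, 60 held in all 8 fits with 1 mouse left out, 54 higher and 6 lower. Signals near 0, where a library's dim end ranged from a median of 0 to 37.2 in the 8 mice, limit the calls of dim genes most.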
